A study of Homo sapiens with 35 samples.

Results

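TWEAK, its receptor TNFRSF12A and the proteins that carry the signal from the receptor to the non-canonical NF-κB pathway were followed in U-87 MG, an established human glioblastoma cell line. The 10 genes were the ligand gene TNFSF12, the receptor gene TNFRSF12A, the adaptor genes TRAF1, TRAF2 and TRAF3, the ubiquitin ligase genes BIRC2 and BIRC3, which encode cIAP1 and cIAP2, the gene for the kinase NIK (MAP3K14), and the IκB kinase genes CHUK and IKBKB. They were chosen by name as members of this pathway, with earlier results of these data known. They were matched by symbol to 10 of the 62696 rows of the RNA-seq count table, and 10 of 10 were among the 16879 genes with enough counts to be tested. RNA-seq had 4 groups of 3 libraries: control cells without TWEAK, control cells with TWEAK, and ETS1 KD or NFKB2 KD cells, both with TWEAK. ChIP-seq was made from 2 libraries per condition, with an antibody against p52 (untreated control, TWEAK-treated control, and TWEAK-treated ETS1 KD cells made with guide 1 or guide 2), against ETS1 (untreated and TWEAK-treated control) or against RNA Pol II (the same 4 groups as RNA-seq). Cells were held in Opti-MEM for 8 h and TWEAK was given at 10 ng/ml for 48 h, with fresh TWEAK after 24 h. The KD cells came from lentiviral CRISPR-Cas9 transduction and antibiotic selection. Which guide the RNA-seq and RNA Pol II libraries carry, and whether a line is 1 clone, is not given in the sources used here. There was no untreated KD group, so KD cells were set against TWEAK-treated or untreated control cells only. The methods of the study describe the RNA-seq replicates as biological, without saying how the cultures were separated, and give no such statement for ChIP-seq in the sources used here.

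TWEAK is a trimeric ligand of the TNF family, and TNFRSF12A, also called Fn14, has a short cytoplasmic tail that binds TRAF proteins. In unstimulated cells TRAF3 brings newly made NIK to a complex of TRAF2, cIAP1 and cIAP2, which marks NIK for degradation. Receptor engagement breaks up this complex, NIK accumulates and acts with IKKα, the product of CHUK, on p100, the product of NFKB2, which is then processed to p52. IKKβ, the product of IKBKB, serves the canonical arm, in which IκB proteins are degraded.

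On hg38 with the GENCODE release 44 annotation, BIRC3 (ENSG00000023445, chr11:102317484-102339403) and BIRC2 (ENSG00000110330, chr11:102347211-102378670) were neighbours on the plus strand, with 7807 bp between the end of BIRC3 and the start of BIRC2. TRAF1 (ENSG00000056558, chr9:120902393-120929173, minus strand) and TRAF2 (ENSG00000127191, chr9:136881912-136926607, plus strand) lie on the same chromosome but far apart. TNFRSF12A (ENSG00000006327) is at chr16:3018445-3022383, TRAF3 (ENSG00000131323) at chr14:102777449-102911500 and IKBKB (ENSG00000104365) at chr8:42271302-42332460, all on the plus strand. MAP3K14 (ENSG00000006062) is at chr17:45263119-45317029 and CHUK (ENSG00000213341) at chr10:100188300-100229596, both on the minus strand. TNFSF12 (ENSG00000239697, chr17:7548508-7557890, plus strand) shares exons with the read-through gene TNFSF12-TNFSF13, which had 0 counts in each library. How reads in exons shared by both genes were counted is not given in the sources used here. A low level of TNFSF12 and a loss of such reads from the counts therefore cannot be told apart. The strand setting of the counting was not given, and the other annotated genes that overlap a member, among them MAP3K14-AS1, CLDN6 and ENSG00000276384, had at most 12 counts in any library.

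Total counts were between 28384201 and 40192606 per RNA-seq library. The mesenchymal genes VIM and CD44 were abundant, at 1756 to 3417 and 110 to 266 CPM per kb (CPM, counts per 1000000 counts of the library, divided by kilobases of exon). Of the glial and neural stem markers, GFAP, SOX2 and S100B had at most 13, 2 and 5 counts and OLIG2 had 18 to 61 counts, while NES had 2134 to 5327 counts. CDKN2A, which is deleted in U-87 MG, had 0 counts in each library. The summed level of 5 marker genes of other cell types lay between 2.92 and 4.81 CPM. The targeted genes followed the labels: NFKB2 was lower in NFKB2 KD than in TWEAK-treated control cells (3.19-fold, edgeR quasi-likelihood test, adjusted p = 0.00339) and ETS1 was lower in ETS1 KD cells (2.35-fold, adjusted p = 0.00112). After removal of group means, 39.4% of the variance lay on an axis with untreated replicate 3 at one end (39.8, against -20.1 and -19.7 for the other untreated libraries), and TWEAK replicate 1 (-34.5) at the other. In bulk RNA, fewer cells that express a gene and less RNA per cell cannot be told apart.

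The sequences that the peaks of p52 fell on are shown first, because p52 is the product of the pathway and its peaks at these genes were listed with TWEAK and not without it. They are hg38, plus strand, 5′ to 3′, and capitals mark each match to the letters GGGNNNNNCC on either strand, a loose form of the NF-κB motif in which neighbouring matches merge into a longer run. The TRAF1 window is the strongest p52 summit of TRAF1 with 50 bases on each side (chr9:120928469-120928569) and the TRAF2 window the same in intron 4 of TRAF2 (chr9:136902549-136902649). The TNFSF12 window is 30 bases at the summit of the strongest p52 peak near TNFSF12 (chr17:7561197-7561226), in the last exon of the neighbouring gene TNFSF13. It was centred on the loose match nearest to that summit, so its match to the loose form was set by that choice. The BIRC3 window is the 250 bases before the BIRC3 start (chr11:102317234-102317483), from the RefSeq promoters of GRCh38.p14, and the BIRC2 window is a p52 summit upstream of BIRC2 with 50 bases on each side (chr11:102346037-102346137). The BIRC3 and BIRC2 windows were added after their values were seen. BIRC3 had the largest TWEAK response of the 10 genes, and the p52 peak of each was listed in only 1 of 2 TWEAK-treated control libraries.
TRAF1 p52 site: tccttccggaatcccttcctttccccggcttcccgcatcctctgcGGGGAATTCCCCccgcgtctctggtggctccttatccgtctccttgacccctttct
TRAF2 p52 site: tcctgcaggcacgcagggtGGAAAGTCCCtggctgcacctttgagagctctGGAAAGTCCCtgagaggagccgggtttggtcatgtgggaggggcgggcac
TNFSF12 p52 site: ccctctgctaGGGAAAACCCCtggttctcc
BIRC3 promoter: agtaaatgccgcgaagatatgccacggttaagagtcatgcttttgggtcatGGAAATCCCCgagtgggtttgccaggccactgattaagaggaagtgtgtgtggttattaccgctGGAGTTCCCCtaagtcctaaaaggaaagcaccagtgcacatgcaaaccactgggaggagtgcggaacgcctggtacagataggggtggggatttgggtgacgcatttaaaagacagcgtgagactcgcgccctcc
BIRC2 p52 peak: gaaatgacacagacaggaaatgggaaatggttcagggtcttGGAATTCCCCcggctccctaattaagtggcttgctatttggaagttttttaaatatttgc
The TRAF1 window held GGGAATTCCC, which reads the same on both strands, inside a run of matches, and the TRAF2 window held GGAAAGTCCC at 2 places. The BIRC3 promoter held GGAAATCCCC and GGAGTTCCCC with the ETS-type letters AGGAAG between them, which 28.7% of RefSeq promoters held over the same 250 bases. Each of the 5 windows also matched the tighter letters GGGNNNTTCC, which are a subset of the loose form. Of the 2941 p52 sites found in both TWEAK-treated libraries, 87.3% held the loose and 58.4% the tighter form in a window of this kind around the summit. Of 35116 RefSeq promoters, 27.8% held the loose and 2.17% the tighter form in a stretch of the same length upstream of the start, and over 250 bases the shares were 54.4% and 5.67%. The ETS-type letters AGGAAG and CCGGAA, searched on both strands, were matched in the TRAF1 window (AGGAAG in 14.5% and CCGGAA in 3.23% of the 2941 p52 sites). These matches describe letters and do not show binding.

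TWEAK raised 6 of the 10 genes in control cells, and the genes that rose were the adaptors, both cIAP genes and NIK. BIRC3, the gene for cIAP2, rose 52.2-fold and stood at rank 2 by p-value among the 16879 genes. TRAF1 rose 8.34-fold, MAP3K14 2.97-fold, BIRC2 2.53-fold, TRAF3 1.94-fold and TRAF2 1.88-fold. The receptor, the ligand and both IκB kinase genes did not pass the threshold. Over all tested genes, 1.55% were raised and 1.53% lowered, against 6 raised and 0 lowered of 10 here. In 7 of the 10 genes each TWEAK-treated library was above each untreated library, which was so for 11% of all tested genes. The median log2 fold change was 0.93 for the 10 genes and 0.02 for all tested genes.

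**Figure D1:**
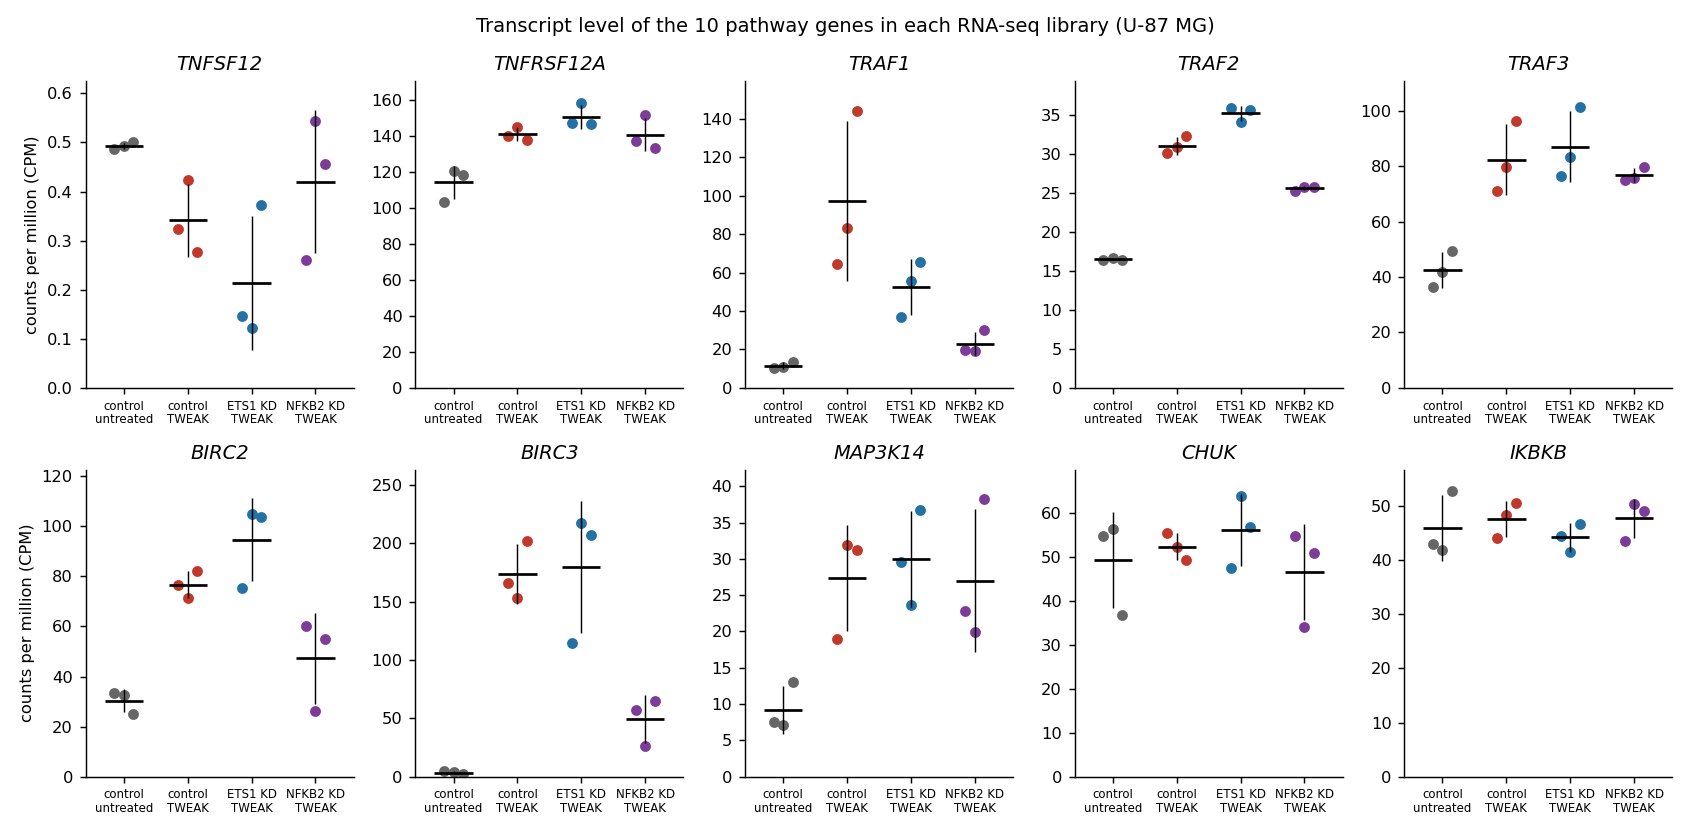
Transcript level of each of the 10 genes (y axis, CPM, from 0) in the 12 RNA-seq libraries, with the 4 groups on the x axis; points are libraries, horizontal lines group means and vertical lines 1 SD (n = 3). BIRC3 rises from at most 4.52 CPM in untreated cells to at least 153 CPM with TWEAK and lies between 26.3 and 65.1 CPM in NFKB2 KD cells, while CHUK and IKBKB overlap in all 4 groups.

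BIRC3 was at 4.52, 3.53 and 1.97 CPM in the 3 untreated libraries and at 166, 153 and 202 CPM in the 3 TWEAK-treated libraries. The groups were far apart, and the log2 fold change was 5.71 ± 0.418 (SE; 95% interval of the fold 27.9 to 97.7; adjusted p = 2.92e-05). BIRC2 was at 33.3, 32.5 and 25 CPM without and 76.5, 71.3 and 82.0 CPM with TWEAK. It rose by 1.34 ± 0.252 on the log2 scale (adjusted p = 0.0129), so both neighbouring cIAP genes rose, the one that was lower in untreated cells by the larger factor. Per kilobase of exon, BIRC3 went from 0.446 ± 0.172 to 23.2 ± 3.42 CPM per kb (mean ± SD, n = 3) and BIRC2 from 6.70 ± 1.01 to 17 ± 1.18. The adjusted p of BIRC2 was 0.0513 without untreated replicate 2 and 0.0583 without TWEAK replicate 3.

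TRAF1, an adaptor that lacks the RING domain of the other TRAF proteins, was at 10.3, 11 and 13.6 CPM in untreated and 64.2, 83.1 and 144 CPM in TWEAK-treated libraries. The 3 TWEAK-treated libraries were well apart from each other and all above the untreated ones, with a log2 fold change of 3.06 ± 0.314 (adjusted p = 0.000249). TRAF2, which joins the cIAP proteins to the complex, was at 16.5, 16.7 and 16.4 CPM in untreated and 30.1, 30.9 and 32.4 CPM in TWEAK-treated libraries. Its replicates were tight, so the smaller change of 0.91 ± 0.093 (log2) had the same adjusted p of 0.000249. TRAF3, which holds NIK in the complex, was at 36.3, 41.8 and 49.5 CPM and rose to 71.0, 79.7 and 96.3 CPM (log2 fold change 0.95 ± 0.151, adjusted p = 0.00466).

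MAP3K14, which encodes NIK itself, was at 7.54, 7.07 and 13 CPM without and 18.9, 32.0 and 31.2 CPM with TWEAK, a log2 fold change of 1.57 ± 0.308 (adjusted p = 0.0156). The groups did not overlap, but the spread within them was wide, and the adjusted p was 0.0791 without untreated replicate 1, 0.0880 without untreated replicate 2, 0.0706 without TWEAK replicate 2 and 0.0716 without TWEAK replicate 3. NIK protein is known to be set mainly by its turnover, which these transcript values do not measure.

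The receptor gene TNFRSF12A was at 103, 121 and 118 CPM without and 140, 145 and 138 CPM with TWEAK. All TWEAK-treated libraries were higher, but the 1.24-fold difference (95% interval 1.07 to 1.43) did not pass the threshold (adjusted p = 0.136). The ligand gene TNFSF12 had few counts, with 14, 16 and 16 in untreated and 9, 17 and 10 in TWEAK-treated libraries, and the limit on shared exons given above applies. At this depth a difference in TNFSF12 was not detectable (log2 fold change -0.52, 95% interval -1.40 to 0.37, adjusted p = 0.659). As counted, with the same limit, the transcript of the ligand itself was at 0.341 ± 0.0745 CPM in TWEAK-treated control cells (mean ± SD, n = 3).

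CHUK was at 54.8, 56.5 and 36.8 CPM in untreated and 55.5, 52.2 and 49.3 CPM in TWEAK-treated libraries, and IKBKB at 43.1, 41.9 and 52.9 against 44.1, 48.3 and 50.6 CPM. Both sets of libraries overlapped, and the 95% intervals of the log2 fold change were -0.34 to 0.51 for CHUK (adjusted p = 0.907) and -0.21 to 0.31 for IKBKB (adjusted p = 0.906). A rise of either kinase gene beyond 1.42-fold lies outside these intervals.

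The order of the 10 genes by level per kilobase of exon differed between untreated and TWEAK-treated cells. In untreated cells TNFRSF12A stood highest at 63.3 ± 5.18 CPM per kb (mean ± SD, n = 3), followed by CHUK at 7.15 ± 1.58 and BIRC2 at 6.70 ± 1.01, a pair that was not separated by its spread. TRAF2 at 4.51 ± 0.042, IKBKB at 4.16 ± 0.546 and TRAF3 at 3.58 ± 0.558 came next, and the spread of IKBKB overlapped that of both neighbours. TRAF1 at 2.60 ± 0.395 and MAP3K14 at 1.62 ± 0.582 followed. BIRC3 and TNFSF12, at 0.446 ± 0.172 and 0.108 ± 0.0015, were at the bottom. With TWEAK, BIRC3 (23.2 ± 3.42) and TRAF1 (21.7 ± 9.31) had the highest means after TNFRSF12A (78.2 ± 2.10) and were not separated from each other by their spread. BIRC2 (17 ± 1.18) came next by its mean and was not separated from TRAF1 by the spread of TRAF1. TRAF2 (8.49 ± 0.315), CHUK (7.58 ± 0.454) and TRAF3 (6.93 ± 1.08) followed, then MAP3K14 (4.83 ± 1.29) and IKBKB (4.31 ± 0.299), which overlapped, and TNFSF12 (0.0748 ± 0.0163).

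Other genes of the pathway were read from lists of related genes. In the TWEAK comparison, 2 of 5 NF-κB subunit genes rose: NFKB2 5.10-fold (adjusted p = 2.92e-05) and RELB, the usual partner of p52, 2.56-fold (adjusted p = 0.000437). Of 9 tested genes for IκB proteins and feedback inhibitors, 6 rose, led by NFKBIE (4.64-fold, adjusted p = 2.92e-05), NFKBIA (2.51-fold, adjusted p = 0.00051), TNIP2 (1.72-fold, adjusted p = 0.000562) and NFKBIB (1.48-fold, adjusted p = 0.0155). The median log2 fold change was 0.43 for the subunit genes and 0.60 for the inhibitors. The remaining lists had 0 genes past the threshold by edgeR and 0 by DESeq2. These were 9 other TRAF genes and TRAF binders (0 with an unadjusted p under 0.05), 3 other IAP genes (0), 11 genes of the IKK complex and its activators (0), 11 genes of NIK and p100 turnover (2, PELI1 and ZFP91) and 6 receptors that signal through NIK or bind TWEAK (2, LTBR and TNFRSF1B). Their median log2 fold changes were 0.11, 0.17, 0.04, -0.00 and -0.20. Of the TRAF and IAP genes and TRAF binders read here, the members TRAF1, TRAF2, TRAF3, BIRC2 and BIRC3 passed the threshold. None of the 12 other tested genes in these lists did. Members and lists were chosen with earlier results of these data known, and a difference between members and the others was not tested.

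BIRC3 had the smallest p over the 4 groups, and the genes whose pattern was nearest to it were sought over the 12 libraries. The measure was the root-mean-square difference of log2 CPM after each gene's mean was removed, against an SD of 2.49 for BIRC3 itself. The 5 nearest were SLAMF8 (0.602), HCAR2 (0.728), MMP9 (0.837), NFE2L3 (1.02) and LINC00622 (1.20). All were low, SLAMF8 with mean levels of 0.0218 CPM in untreated, 3.95 in TWEAK-treated, 2.78 with ETS1 KD and 1.01 with NFKB2 KD. MMP9, a matrix-degrading enzyme, was at 0 CPM in untreated cells and at 1.73, 2.06 and 0.369 CPM in the same 3 TWEAK-treated groups.

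**Figure D2:**
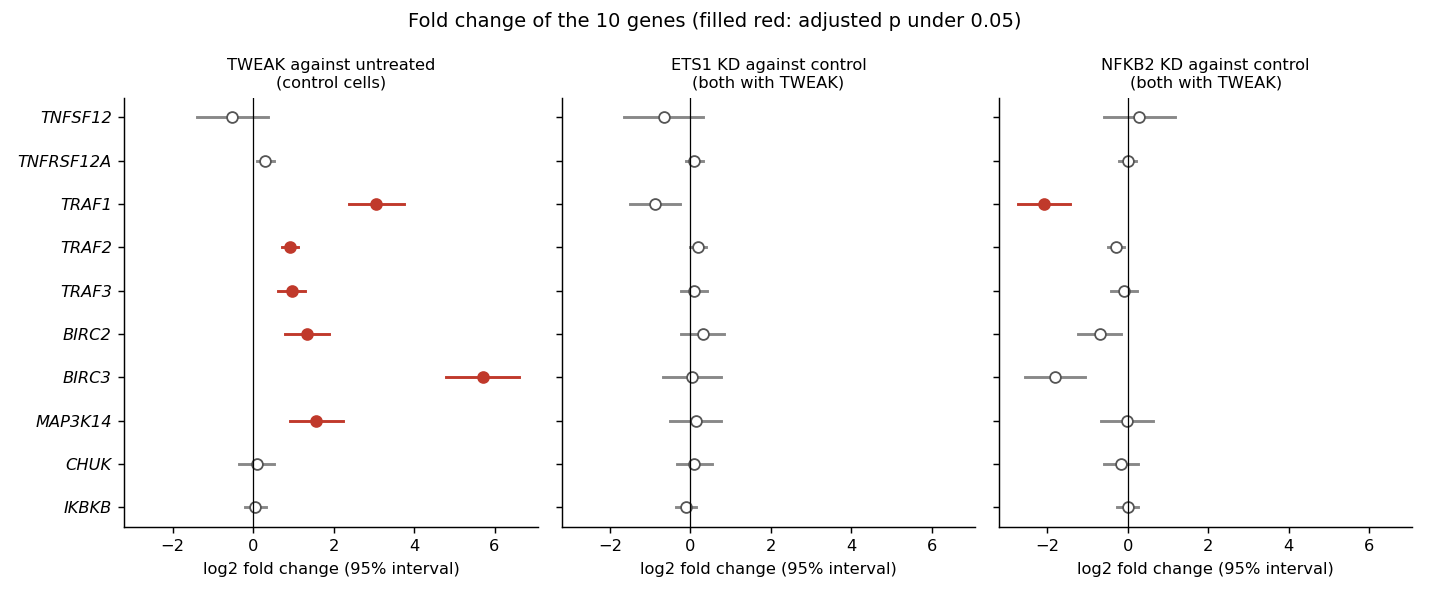
Log2 fold change (x axis) of each of the 10 genes in 3 comparisons, with 95% intervals from edgeR; filled red points have an adjusted p under 0.05. TWEAK moves 6 genes, ETS1 KD 0 and NFKB2 KD only TRAF1, at -2.08.

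ETS1 is a transcription factor, and the ETS1 KD comparison asks which genes differ between ETS1 KD and control cells, both with TWEAK. Without an untreated KD group, a changed response to TWEAK and a changed starting level cannot be told apart. The ETS1 transcript was at a mean of 33.0 CPM in ETS1 KD cells, against 42.8 CPM in untreated control cells (edgeR quasi-likelihood test, adjusted p = 0.117). A gene that did not differ is therefore not shown to be independent of ETS1. None of the 10 genes passed the threshold (0 raised and 0 lowered by edgeR, 0 by DESeq2, and 1, TRAF1, at an unadjusted p under 0.05). Over all tested genes 0.255% were raised and 1.13% lowered, and 12% had an unadjusted p under 0.05 in either direction. Each ETS1 KD library was above each control library for TRAF2 and TNFRSF12A, 2 of 10 genes against 9.57% of all tested genes. The median log2 fold change of the 10 genes was 0.09, against 0.01 for all tested genes.

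BIRC3 remained high in ETS1 KD cells, at 115, 217 and 208 CPM, and the difference from control cells was 0.05 on the log2 scale with a 95% interval from -0.67 to 0.77 (adjusted p = 0.989). BIRC2 was at 75.6, 105 and 104 CPM (log2 fold change 0.31, interval -0.23 to 0.84, adjusted p = 0.749). TRAF1 was at 36.7, 55.7 and 65.3 CPM, of which the highest lay just above the lowest TWEAK-treated control library (64.2 CPM). Its log2 fold change was -0.89 (interval -1.51 to -0.26, adjusted p = 0.201 and unadjusted p of 0.00931 by edgeR's quasi-likelihood test). With no filter on low counts TRAF1 passed at a log2 fold change of -0.87 (adjusted p = 3.66e-05), the lowest value over 17 alternative settings, of which the highest was 0.587.

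The other members differed little from control cells, within intervals that include 0. TRAF2 was at 35.9, 34.1 and 35.7 CPM (log2 fold change 0.18, interval -0.02 to 0.38), TRAF3 at 76.7, 83.4 and 101.2 CPM (0.08, -0.24 to 0.40) and MAP3K14 at 29.6, 23.6 and 36.7 CPM (0.13, -0.51 to 0.77). TNFRSF12A was at 147, 158 and 146 CPM (0.09, -0.12 to 0.31), CHUK at 47.4, 63.9 and 56.9 CPM (0.10, -0.32 to 0.52) and IKBKB at 44.5, 41.5 and 46.8 CPM (-0.11, -0.37 to 0.15). TNFSF12 had 5, 4 and 13 counts, too few for a difference to be detectable (-0.66, -1.64 to 0.31). In the lists of related genes, NFKBIZ was lower in ETS1 KD cells (2.68-fold, adjusted p = 0.0054) and was 1 of the 9 genes for IκB proteins and feedback inhibitors. NFKBIZ was named after its value was seen. The other 6 lists had 0 genes past the threshold by edgeR, while DESeq2 called 1 receptor, and between 0 and 3 genes of a list had an unadjusted p under 0.05.

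NFKB2 encodes p100 and p52, and its KD was compared with control cells in the same way and with the same limit. The NFKB2 transcript was at a mean of 91.0 CPM in NFKB2 KD cells, against 56.9 CPM in untreated control cells. A gene that did not differ is therefore not shown to be independent of NFKB2. TRAF1 fell by 2.08 ± 0.300 on the log2 scale in NFKB2 KD cells (4.24-fold lower, adjusted p = 0.0392), and was the only member past the threshold (0 raised, 1 lowered). Over all tested genes 0.00592% were raised and 0.0237% lowered, and TRAF1 was 1 of the 5 genes called. In 4 of 10 members, TRAF1, TRAF2, BIRC2 and BIRC3, each NFKB2 KD library lay below each control library, which was so for 3.82% of all tested genes. The median log2 fold change was -0.13, against -0.02 for all tested genes.

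TRAF1 was at 19.8, 19.2 and 29.9 CPM in NFKB2 KD cells, below the 64.2 to 144 CPM of TWEAK-treated control cells. BIRC3 was at 56.9, 26.3 and 65.1 CPM, also apart from the control libraries (153 to 202 CPM), with a log2 fold change of -1.81 (interval -2.56 to -1.07). Its unadjusted p was 0.000161 and its adjusted p 0.194 with edgeR's quasi-likelihood test, and 0.000225 with DESeq2, which called TRAF1 and BIRC3. Over 17 alternative settings the adjusted p of BIRC3 lay between 9.41e-24, with no filter on low counts, and 0.955, with log2 fold changes from -2.06 to -1.51. BIRC2 was at 60.2, 26.4 and 55.2 CPM (log2 fold change -0.70, interval -1.24 to -0.16, adjusted p = 1) and TRAF2 at 25.3, 25.8 and 25.8 CPM (-0.28, -0.48 to -0.08, adjusted p = 0.889). NFKB2 KD replicate 2 was the lowest library of its group for BIRC2, BIRC3, CHUK, MAP3K14 and TRAF1, for TRAF1 only just (19.2 against 19.8 CPM in replicate 1). The call of TRAF1 was not kept, with adjusted p from 0.0658 to 0.239, when untreated replicate 1 or 2, TWEAK replicate 2 or 3, ETS1 KD replicate 2 or 3, or any NFKB2 KD replicate was left out, or when only the 2 groups compared entered the fit (0.220). The log2 fold change was -1.68 without TWEAK replicate 3, the library with the highest TRAF1 level.

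TRAF3 and MAP3K14 did not differ detectably between NFKB2 KD and control cells. TRAF3 was at 75.1, 75.8 and 79.7 CPM (log2 fold change -0.10, interval -0.42 to 0.22) and MAP3K14 at 22.8, 19.9 and 38.3 CPM (-0.02, -0.66 to 0.62). TNFRSF12A was at 137, 151 and 133 CPM (-0.00, -0.22 to 0.21), CHUK at 54.8, 34.1 and 50.9 CPM (-0.17, -0.59 to 0.26), IKBKB at 43.6, 50.5 and 49.2 CPM (0.00, -0.26 to 0.26) and TNFSF12 at 9, 20 and 15 counts (0.29, -0.60 to 1.18). In the lists, NFKB2 itself was lower, and DESeq2 called 2 of the 5 subunit genes. The inhibitor list had 0 of 9 genes past the threshold by edgeR and 1 by DESeq2. At an unadjusted p under 0.05 by edgeR, 2 subunit genes (NFKB2 and RELB) and 5 inhibitor genes stood out. The share of all tested genes at that unadjusted p was not computed for this comparison. The ETS1 KD and NFKB2 KD comparisons share the 3 TWEAK-treated control libraries.

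The KD groups were then set against each other, which gives the difference between their effects. BIRC3 was 3.64-fold higher in ETS1 KD than in NFKB2 KD cells (log2 difference 1.86 ± 0.344, adjusted p = 0.0154) and TRAF2 1.37-fold higher (0.46 ± 0.0918, adjusted p = 0.0242). These were 2 raised and 0 lowered of 10 members, against 0.533% raised and 1.4% lowered of all tested genes. TRAF1 was 2.29-fold higher (adjusted p = 0.0597) and BIRC2 2.01-fold higher (adjusted p = 0.063), and in all 4 genes the ETS1 KD libraries lay above the NFKB2 KD libraries, as in 9.79% of all tested genes. DESeq2 called TRAF1, TRAF2, BIRC2 and BIRC3. With edgeR, TRAF1 passed without TWEAK replicate 1 (adjusted p = 0.0431) or 3 (0.0286) and BIRC2 without NFKB2 KD replicate 1 (0.0338). The adjusted p of BIRC3 was 0.0671 without ETS1 KD replicate 2 and 0.0795 without ETS1 KD replicate 3, and log2 differences over 17 alternative settings were 1.54 to 2.11. TRAF2 did not pass under 8 of them (untreated replicate 1, TWEAK replicate 2, any ETS1 KD replicate or NFKB2 KD replicate 3 left out, no filter on low counts, or only these 2 groups in the fit), with adjusted p up to 0.241 and log2 differences of 0.42 to 0.46. The summed level of the 5 marker genes of other cell types was 2.92 to 3.43 CPM with ETS1 KD and 3.47 to 4.54 CPM with NFKB2 KD, and its part in these differences was not tested.

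Against untreated cells, TWEAK-treated ETS1 KD cells had 7 raised and 0 lowered members (6.22% raised and 7.61% lowered over all tested genes). BIRC3 was 54.0-fold (adjusted p = 9.69e-06) and TRAF1 4.51-fold higher (adjusted p = 0.000669). TRAF2, TRAF3, BIRC2 and MAP3K14 were 2.13, 2.05, 3.13 and 3.26-fold higher, and TNFRSF12A was 1.32-fold higher (adjusted p = 0.0173), though its adjusted p was 0.1501 with no filter on low counts, 0.1005 without untreated replicate 1, 0.0885 without ETS1 KD replicate 2 and 0.0521 without ETS1 KD replicate 3. TNFSF12 was called, as lower, only without ETS1 KD replicate 3 (adjusted p = 0.0338). TWEAK-treated NFKB2 KD cells had 4 raised and 0 lowered members (0.409% and 0.196% over all tested genes): BIRC3 was 14.8-fold (adjusted p = 0.000488), MAP3K14 2.93-fold (adjusted p = 0.0456), TRAF3 1.81-fold (adjusted p = 0.0232) and TRAF2 1.55-fold higher (adjusted p = 0.00671). TRAF1 was 1.97-fold higher, with each NFKB2 KD library above each untreated library, but did not pass (adjusted p = 0.243), and BIRC2 was 1.56-fold higher with overlapping groups (adjusted p = 0.443). BIRC2 passed without NFKB2 KD replicate 2 (adjusted p = 0.0183), and with no filter on low counts both TRAF1 (5.77e-06) and BIRC2 (0.0158) passed. With only the 2 groups in the fit, the adjusted p of TRAF3 was 0.105, and it was also over 0.05 without untreated replicate 1 (0.137) or 2 (0.124) or without NFKB2 KD replicate 1 (0.0679) or 3 (0.0948). TRAF2 did not pass with only the 2 groups (0.178) or without untreated replicate 2 (0.0556), and MAP3K14 did not pass under 10 of 17 settings (adjusted p up to 0.239), among them leaving out any replicate of ETS1 KD, NFKB2 KD replicate 1 or 3, untreated replicate 1 or 2, or TWEAK replicate 2 or 3. All comparisons with untreated cells share the same 3 untreated libraries.

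p52 peaks were sought in the gene body and within 15 kb of any annotated start site of each gene, and a gene was given a site where both replicates had peaks that shared at least 1 bp. In untreated cells 0 of 10 genes had a p52 site (0.0711% of the 16873 genes with a position). With TWEAK 4 of 10 did (13.6%): TRAF1, TRAF2, TNFSF12 and IKBKB. In TWEAK-treated ETS1 KD cells, 2 of 10 had a site with guide 1 (6.09%; TRAF1 and TNFSF12) and 3 of 10 with guide 2 (13.8%; TRAF1, TNFSF12 and IKBKB). Among the genes that rose with TWEAK, p52 peaks in both TWEAK-treated control libraries were listed at TRAF1 and TRAF2 only. Fold enrichment over background is the authors' value and is not normalised between libraries, and with 2 lists per condition and no read counts the values are given without a test.

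**Figure D3:**
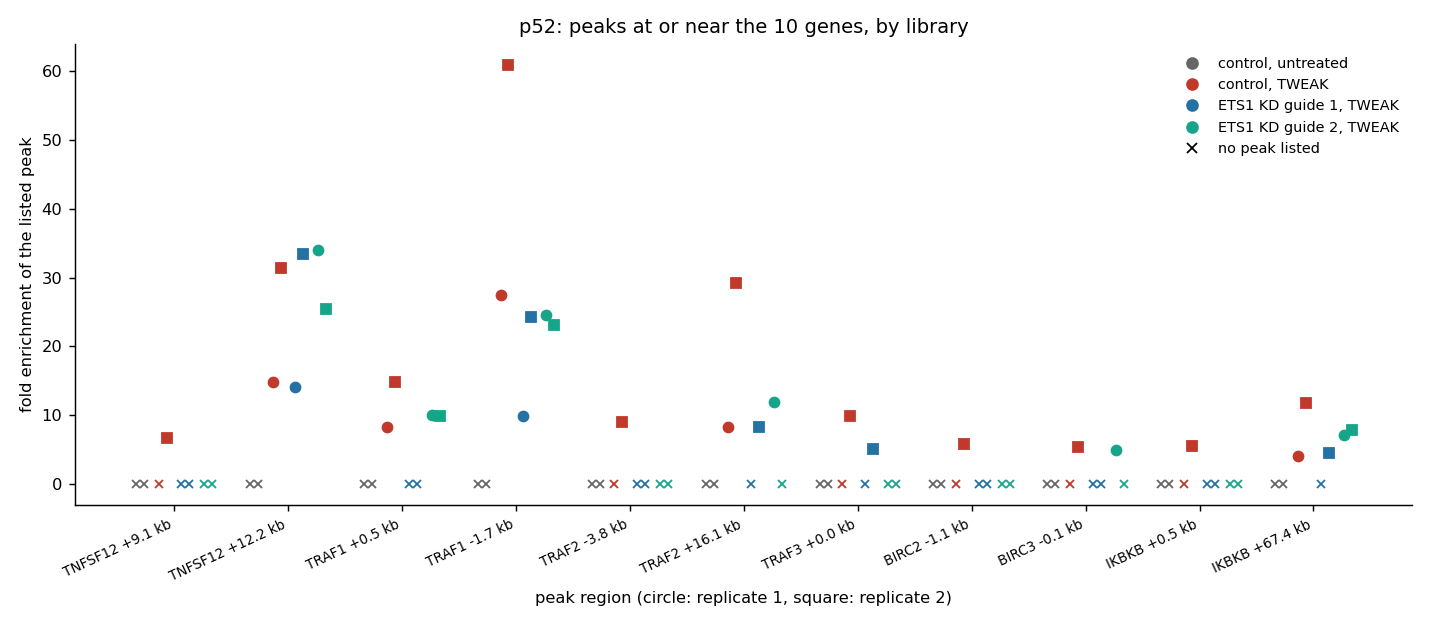
Fold enrichment (y axis) of the p52 peak listed in each of 8 libraries at the 11 regions near the 10 genes that had a peak in any library, each named by its gene and the distance of its summit from the main annotated start; circles are replicate 1, squares replicate 2, and crosses mark that no peak was listed. Untreated libraries have 0 peaks at the 11 regions, and TWEAK replicate 2 has a peak at 11 of 11 while TWEAK replicate 1 has 5.

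In TWEAK-treated control cells the strongest p52 peak near the 10 genes lay upstream of the main start of TRAF1 (that of the MANE Select transcript), at -1723 bp from it, and within the first intron of a longer TRAF1 transcript, on the window printed above with GGGAATTCCC at its centre. Its fold enrichment was 27.4 and 60.9 in TWEAK-treated control cells, 9.90 and 24.2 in ETS1 KD cells with guide 1 and 24.5 and 23.1 with guide 2. It was present in all 6 TWEAK-treated libraries and in neither untreated library. In each of the 4 ETS1 KD libraries it was lower than the strongest peak near TNFSF12. It ranked 170 of 3579 and 137 of 11761 peaks by q-value in TWEAK-treated control cells. A weaker TRAF1 peak in exon 2, 532 bp inside the gene, had fold enrichments of 8.21 and 14.8 in control and 9.96 and 9.92 in guide 2 cells, and was not listed with guide 1.

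The TRAF2 peak, 16083 bp inside the gene in intron 4, had fold enrichments of 8.22 and 29.3 with TWEAK and was listed in 1 of 2 libraries with each guide (8.25 with guide 1 replicate 2 and 11.9 with guide 2 replicate 1). A peak 9081 bp from the main start of TNFSF12, also beyond its end, was listed in TWEAK replicate 2 only (6.60). The strongest peak near TNFSF12 lay 12159 bp from its main start, beyond its end and in TNFSF13. Its fold enrichments were 14.8 and 31.4 in control, 14.1 and 33.4 in guide 1 and 34.0 and 25.4 in guide 2 cells. It ranked 389 of 3579 and 331 of 11761 peaks by q-value in TWEAK-treated control cells, while TNFSF12 itself had at most 20 counts in any library. The IKBKB site was in the downstream gene POLB, 67370 bp from the IKBKB start, with fold enrichments of 4.07 and 11.8.

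At BIRC3, whose transcript changed the most, p52 was listed before the start, at -149 bp, in TWEAK replicate 2 (fold enrichment 5.40) and in guide 2 replicate 1 (4.93), with the summit between both capitalised matches of the BIRC3 promoter, and in none of the other 6 p52 libraries. At BIRC2 an upstream peak at -1127 bp was listed in TWEAK replicate 2 only (5.77), and at the TRAF3 start in TWEAK replicate 2 (9.89) and guide 1 replicate 2 (5.05). TNFRSF12A, MAP3K14 and CHUK had no p52 peak in their windows in any library. TWEAK replicate 2 had the longest list, with 11761 peaks against 3579 in TWEAK replicate 1 and 714 and 452 in the untreated libraries, and the part of list length in these differences was not tested.

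ETS1 sites were listed at 1 of 10 genes in untreated cells (8.55% of all genes) and at 2 of 10 with TWEAK (11.6%). The TRAF2 start had an ETS1 peak in all 4 libraries, with fold enrichments of 5.5 and 4.73 without and 4.31 and 4.72 with TWEAK. MAP3K14 had a peak in intron 1, 126 and 123 bp inside the gene, with fold enrichments of 4.56 and 4.37 with TWEAK and a peak at 4.21 in untreated replicate 1 only. The MAP3K14 summit of TWEAK replicate 1, with 50 bases on each side, held neither AGGAAG nor CCGGAA (matched in 8.88% and 9.34% of the 1981 ETS1 sites with TWEAK). It held 1 match to the loose NF-κB letters (32.7%). The TRAF2 ETS1 summits were not searched for these letters. TRAF1 had a weak ETS1 peak in untreated replicate 1 (3.65) and CHUK in TWEAK replicate 1 (4.57). At a stricter minimum −log10 q-value of 5, 0 of the 10 genes kept an ETS1 site in either condition. BIRC3 and BIRC2 had no ETS1 peak in their windows in any library.

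RNA Pol II sites in the wide windows were listed at 6 of 10 genes in untreated cells (59.1% of all genes), 8 with TWEAK (69.2%), 8 with ETS1 KD (61.3%) and 5 with NFKB2 KD (53.8%). Because the wide BIRC3 window reaches the BIRC2 start, peaks within 1 kb of the main start were also read, a window chosen after the values were seen. They were listed in both replicates at 5 of 10 genes in untreated cells (47.2% of 12698 genes), 8 with TWEAK (60.3%), 7 with ETS1 KD (50.1%) and 4 with NFKB2 KD (44.9%). The genes that were added with TWEAK were BIRC3 and TRAF3, which had no peak in either untreated library, and IKBKB, which had one in untreated replicate 2. That IKBKB peak, at 7.78, was higher than both TWEAK peaks of IKBKB (6.28 and 3.75).

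**Figure D4:**
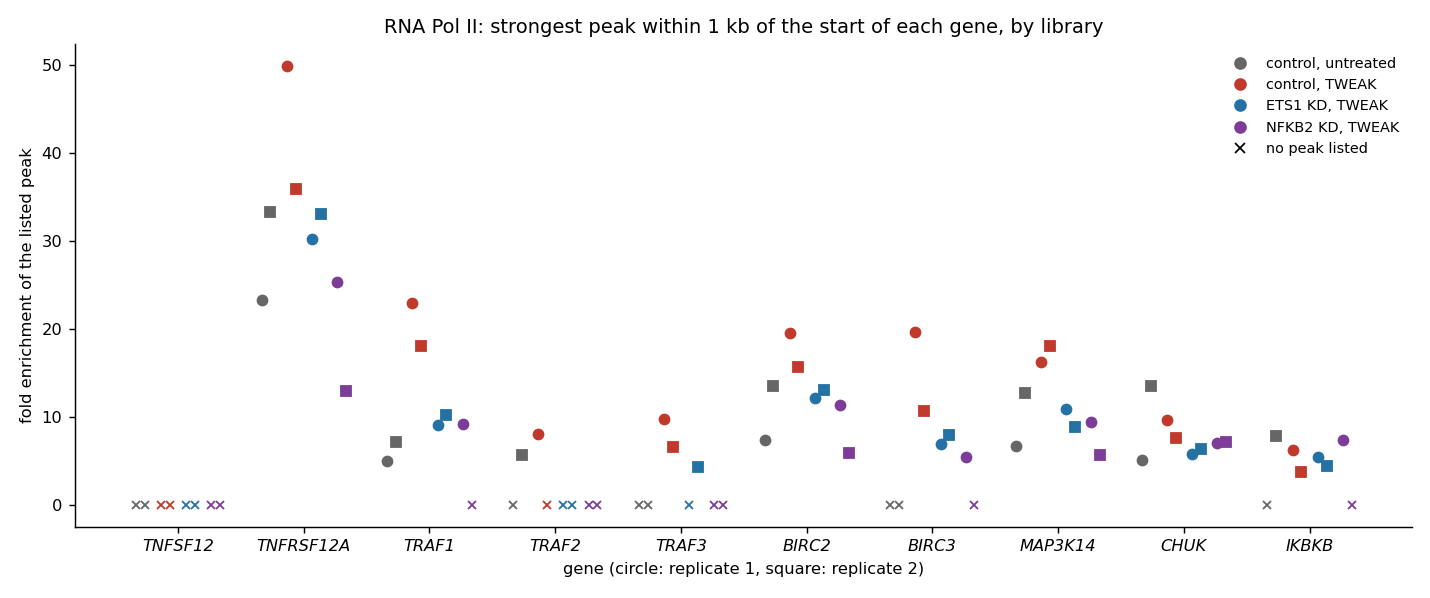
Fold enrichment (y axis) of the strongest RNA Pol II peak within 1 kb of the main start of each of the 10 genes (x axis) in 8 libraries; circles are replicate 1, squares replicate 2, and crosses mark that no peak was listed. At BIRC3 no peak is listed in untreated cells and peaks of 19.7 and 10.6 with TWEAK, and TNFRSF12A has the highest values in every group.

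At the BIRC3 start no RNA Pol II peak was listed in either untreated library, and the fold enrichment was 19.7 and 10.6 with TWEAK, 6.96 and 7.95 with ETS1 KD and 5.42 in NFKB2 KD replicate 1, with no peak in NFKB2 KD replicate 2. At the TRAF1 start it was 5.0 and 7.09 in untreated, 22.9 and 18.0 in TWEAK-treated, 9.08 and 10.2 with ETS1 KD and 9.24 in NFKB2 KD replicate 1 only. Both genes had their highest listed RNA Pol II values in TWEAK-treated control cells, as did BIRC2, TRAF2, TRAF3, MAP3K14 and TNFRSF12A, but not CHUK or IKBKB. The share of all genes with this order was not computed. TWEAK replicate 1 had the longest list (44672 peaks), and these values are not normalised between libraries. The BIRC2 start had peaks of 7.40 and 13.6 without and 19.6 and 15.7 with TWEAK, 12.2 and 13 for ETS1 KD and 11.3 and 5.92 for NFKB2 KD cells. TRAF3 had peaks of 9.78 and 6.62 with TWEAK and none without, and 4.35 in ETS1 KD replicate 2. NFKB2 KD replicate 2 had the shortest RNA Pol II list, with 11175 peaks against 24710 to 44672 in the other 7, and the part of list length was not tested.

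MAP3K14 had peaks of 6.69 and 12.7 in untreated, 16.3 and 18.1 in TWEAK-treated, 10.9 and 8.84 for ETS1 KD and 9.46 and 5.72 for NFKB2 KD cells. The receptor gene TNFRSF12A was occupied in all 8 libraries, at 23.3 and 33.3 without and 49.9 and 35.9 with TWEAK, 30.2 and 33.1 for ETS1 KD and 25.4 and 13 for NFKB2 KD cells. CHUK also had a peak in all 8 libraries, at 5.15 and 13.5 without and 9.65 and 7.61 with TWEAK, and its values overlapped. The TRAF2 start had a peak in 1 untreated (5.69) and 1 TWEAK-treated library (8.01) only, although its transcript rose. TNFSF12 had no RNA Pol II peak within 1 kb of its start in any library.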

How the data were processed

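The members and the lists of related genes were chosen with earlier results of these data known. For RNA-seq the authors used Trimmomatic for trimming, STAR for alignment to hg38 and featureCounts for summing reads by gene. They deposited raw counts, and neither tool versions nor annotation release nor strand setting are given in the sources used here. For ChIP-seq the authors mapped reads with Bowtie2, called peaks per library with MACS2 with subtraction of the input, and removed blacklisted regions. The deposited peak lists hold the fold enrichment, the −log10 p- and q-values and an integer score made from the q-value by the authors' peak caller, and which input served which library is not given. The 3 input samples hold no values and were not analysed here.

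Gene identifiers were matched to GENCODE release 44 (62625 of 62649). Counts were tested with edgeR 4.0.16 in R 4.3.3: filterByExpr (16879 genes), TMM, the quasi-likelihood F-test with 12 libraries and 4 groups in 1 model and no covariate, 2-sided, and Benjamini-Hochberg adjustment over all tested genes, with a threshold of 0.05. Replicates of a group differed by more than sampling noise, with a chi-square per degree of freedom of 6.86 or more, and each was counted. CPM was computed with TMM library sizes, and log2 CPM with a prior count of 2. A low-count limit of 3 counts corresponds to 0.0747 to 0.108 CPM in these libraries and covers counting error only. On simulated data for the TWEAK comparison (16569 genes), edgeR recovered 16% of genes changed 1.5-fold, 72% at 2-fold, 96% at 4-fold and 100% at 8-fold, and called 10 unchanged genes. DESeq2 1.42.0, which the authors used, RLE size factors, no filter, only the groups compared, an unadjusted p of 0.05 with a 1.5-fold change, a replicate block and the omission of each library were alternatives.

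Peaks were read with Python 3.11.15 and pandas 2.3.3, and sequences with samtools 1.23.1. Their read depth is unknown. Alternatives for peaks were a window of 5 kb or 1 kb, a −log10 q-value of at least 5, start sites without gene bodies, a larger overlap between replicates, each list alone, and a peak in either replicate. The text names each of the 10 members, the targeted genes, up to 4 related genes per list past the threshold with the smallest p in the TWEAK comparison, overlapping genes and the 5 genes nearest in pattern to the member with the smallest p over the 4 groups; other names were chosen after their values were seen.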

Additional observations from a re-analysis of the deposited data

Results flagged for a closer look

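The effects of ETS1 KD and NFKB2 KD in TWEAK-treated cells differed for 2 of the 10 genes by a test of the difference itself (edgeR quasi-likelihood test, 3 libraries per group). The effect of ETS1 KD minus the effect of NFKB2 KD was 1.86 on the log2 scale for BIRC3 (adjusted p = 0.0154), with 115 to 217 CPM in ETS1 KD and 26.3 to 65.1 CPM in NFKB2 KD libraries. It was 0.46 for TRAF2 (adjusted p = 0.0242), with 34.1 to 35.9 CPM against 25.3 to 25.8 CPM. BIRC3 did not pass the threshold under 2 of 17 alternative settings, and TRAF2 did not pass under 8.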

How the results depend on the processing

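Of 1020 values of the 10 genes under alternative settings, 912 kept their direction and their side of the threshold, 47 lost and 18 gained a call, and 43 changed sign. The cause was not tested for any of these. The genes changed among all tested genes numbered 520 with TWEAK, 234 with ETS1 KD and 5 with NFKB2 KD against TWEAK-treated control cells, 2334 and 102 for ETS1 KD and NFKB2 KD against untreated cells, and 327 between the KD groups. In the same order, DESeq2 gave 940, 534, 36, 2851, 308 and 808, no filter on low counts 859, 469, 87, 2536, 278 and 781, and an unadjusted p under 0.05 with a 1.5-fold change 1197, 957, 379, 2476, 671 and 1244. With only the groups compared in the fit, NFKB2 KD gave 2 against TWEAK-treated and 18 against untreated control cells, and the KD groups gave 104. Leaving out 1 library at a time gave 190 to 979 with TWEAK, 102 to 413 with ETS1 KD, 1 to 4 with NFKB2 KD, 1178 to 3112 and 37 to 251 against untreated cells, and 80 to 545 between the KD groups.

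Of the 10 genes, ETS1 KD changed 0, and 1 with no filter, by the unadjusted rule or with a replicate block. NFKB2 KD changed 1, with 2 by DESeq2, 3 with no filter, 0 with only the groups compared, 3 by the unadjusted rule and 0 to 1 when 1 library was left out. NFKB2 KD against untreated cells changed 4, with 1 when only those groups entered the fit and 1 to 5 when 1 library was left out. The KD groups differed in 2, with 4 by DESeq2, 1 with only those groups, 4 by the unadjusted rule and 0 to 3 when 1 library was left out. TWEAK changed 4 to 6 and ETS1 KD against untreated cells 6 to 7 when 1 library was left out.

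Replicate numbers did not pair the samples: the correlation of deviations was over 0.1 in 9 of 18 pairs of equal number (-0.304 to 0.492), and 7 of 12 libraries correlated best with their own number. With the replicate number as a block, the comparisons in the order above had 657, 252, 4, 2792, 122 and 361 changed genes, and 6, 1, 1, 7, 5 and 3 of the 10. The genes added under the block were TRAF1 in each of the comparisons that gained a call (adjusted p = 0.0231 with ETS1 KD, 0.0224 for NFKB2 KD against untreated cells and 0.00499 between the KD groups, edgeR).

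Sign changes occurred in genes that were not called, with a log2 fold change of at most 0.225 in size and an adjusted p of at least 0.804. In NFKB2 KD cells TNFRSF12A was at 0.0105 on the log2 scale with DESeq2 and 0.0105 with its size factors, 0.0345 with no filter and 0.00149 with only the groups compared, and MAP3K14 was at 0.0129 with no filter. Leaving out 1 library at a time gave, with TWEAK, -0.0103 to 0.166 for IKBKB and -0.0880 to 0.194 for CHUK. With ETS1 KD it gave -0.0409 to 0.209 for TRAF3, -0.0884 to 0.269 for MAP3K14, -0.118 to 0.293 for BIRC3 and -0.0117 to 0.212 for CHUK. With NFKB2 KD it gave -0.0541 to 0.0342 for TNFRSF12A, -0.359 to 0.159 for MAP3K14, -0.0360 to 0.0638 for IKBKB, -0.182 to 0.0283 for TRAF3 and -0.300 to 0.0187 for CHUK. Against untreated cells it gave -0.118 to 0.0577 for IKBKB in ETS1 KD, and -0.255 to 0.104 for CHUK, -0.00797 to 0.168 for IKBKB and -0.457 to 0.0236 for TNFSF12 in NFKB2 KD cells. Between the KD groups it gave -0.0403 to 0.489 for MAP3K14.

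For peaks, p52 sites were at 4 of the 10 genes with TWEAK, 2 with guide 1 and 3 with guide 2. A peak in either replicate gave 7, 5 and 5, single lists gave 4 to 7, 2 to 5 and 3 to 5, and a 1-kb window, chosen after seeing the data, gave 1, 0 and 1. ETS1 sites were at 1 gene without and 2 with TWEAK, and at 0 and 0 with a −log10 q-value of at least 5. Without TWEAK a peak in either replicate gave 3 and single lists 1 to 3. RNA Pol II sites were at 6 genes in untreated and 5 in NFKB2 KD cells, a peak in either replicate gave 10 and 10, and single lists gave 6 to 10 and 5 to 10. With 3 libraries per group, small changes of genes with few counts such as TNFSF12 were not detectable.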
